A study of Sus scrofa with 20 samples.

Results

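The genes described here encode enzymes that break down aromatic amino acids, and they were read in pig biliary tree stem cells and in sorted pig liver cells. The 9 gene names TAT, HPD, HGD, FAH, TDO2, KMO, KYNU, HAAO and SDS were looked up among the gene names of a table of 25764 rows, and 8 of them had a row. SDS, the gene of serine dehydratase, was not analysed here. Tyrosine is degraded mainly in hepatocytes, where TAT removes its amino group, HPD and HGD oxidise the product through homogentisate, and FAH splits the last intermediate into fumarate and acetoacetate. Tryptophan is opened by TDO2 and then passes along the kynurenine pathway through KMO, KYNU and HAAO to quinolinate, a precursor of NAD. KMO and KYNU are also known from macrophages, whereas TAT, HPD, HGD and TDO2 are textbook markers of the mature hepatocyte.

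Poly(A) RNA of 20 preparations was sequenced, and the libraries are named by the numbers of their titles, S2 to S23. The 5 pBTSC libraries hold porcine biliary tree stem cells, with the gallbladder as labelled tissue, prepared from the gallbladder, cystic duct and common duct of newborn piglets. According to the paper, stem/progenitors for its genetic studies were selected on surface antigens, biliary tree stem cells as cells without CD45 and with EpCAM. They were then kept for hours in serum-free medium on low-attachment dishes, where organoids with early mesenchymal cells formed. Libraries S2, S7 and S11 are of H2B-GFP piglets, which carry a ubiquitous histone H2B and green fluorescent protein transgene, and S15 and S20 of wild-type piglets, as listed in the study's supplement. The 15 liver libraries come from cells sorted on surface antigens, namely 4 of CD45-/EpCAM+ cells (S4, S9, S13, S19), 2 of CD45-/EpCAM- cells (S5, S14), 5 of CD45+ cells (S3, S8, S12, S18, S23), 2 of CD31+ cells (S16, S21) and 2 of CD146+ cells (S17, S22). CD45 marks leukocytes, EpCAM epithelial progenitors, and CD31 and CD146 endothelial and perivascular cells. No treatment is given for any group, and neither line, age nor animal is given in the labels for the liver libraries, so p-values measure the spread between these libraries, which may partly be technical. The title numbers fall into 5 runs of neighbouring numbers (S2-S5, S7-S9, S11-S14, S15-S19 and S20-S23), each with 1 pBTSC library and 2 to 4 liver libraries, and the labels do not say that a run is an animal. Liver libraries S3 to S14 (n = 8) and S16 to S23 (n = 7) were also compared, a division known from earlier results of these data. The runs S2-S5, S7-S9 and S11-S14 hold the H2B-GFP pBTSC libraries, and S15-S19 and S20-S23 the wild-type ones. If the liver libraries of a run share its line, range and line cannot be told apart.

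Values are normalized counts, that is, read counts put on a common scale by the authors, and are not corrected for gene length, so levels are compared between libraries and not between genes. The estimated depth was between 21300000 and 77800000 reads in 17 libraries. It was 801000 in S13, 1570000 in S15 and 455000 in S22, where 3 reads, the smallest amount taken as detectable, are worth 77.1, 37.7 and 156.5 normalized counts. These floors cover counting error only. Hepatocyte markers were high in every sorted liver fraction: the summed level of 8 of them was 1153366 to 2976216 normalized counts in the 15 liver libraries, CD45+ and CD31+ ones included. The labels of the liver fractions are therefore used as names of the sort and not of a cell type. The label pBTSC is likewise used as the name of a preparation. Summed stellate cell and fibroblast markers were 311710 to 1385074 normalized counts in pBTSCs and 25166 to 147548 in the liver. The sum of 4 cholangiocyte markers was 2402 to 5855 in pBTSCs, within the 1528 to 6500 of the liver. The data are of bulk RNA, in which fewer cells of a type and less RNA per cell cannot be told apart.

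All 8 members were called lower in pBTSCs than in CD45-/EpCAM+ liver cells, as were 10.3% of all genes, and no pBTSC library reached the lowest liver library for any of them, which held for 9.21% of all genes. The differences fell in a deep and a shallower range: TAT, HPD, HGD and TDO2 had log2 fold changes between -9.31 and -8.26 against CD45-/EpCAM+ liver cells, and FAH, KMO, KYNU and HAAO between -4.78 and -2.92. Among the 15 liver libraries, TAT, HPD and HGD were highest in the runs S2-S5 and S7-S9, and KMO was lower in every library of S16-S23 than in any of S3-S14.

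**Figure D1:**
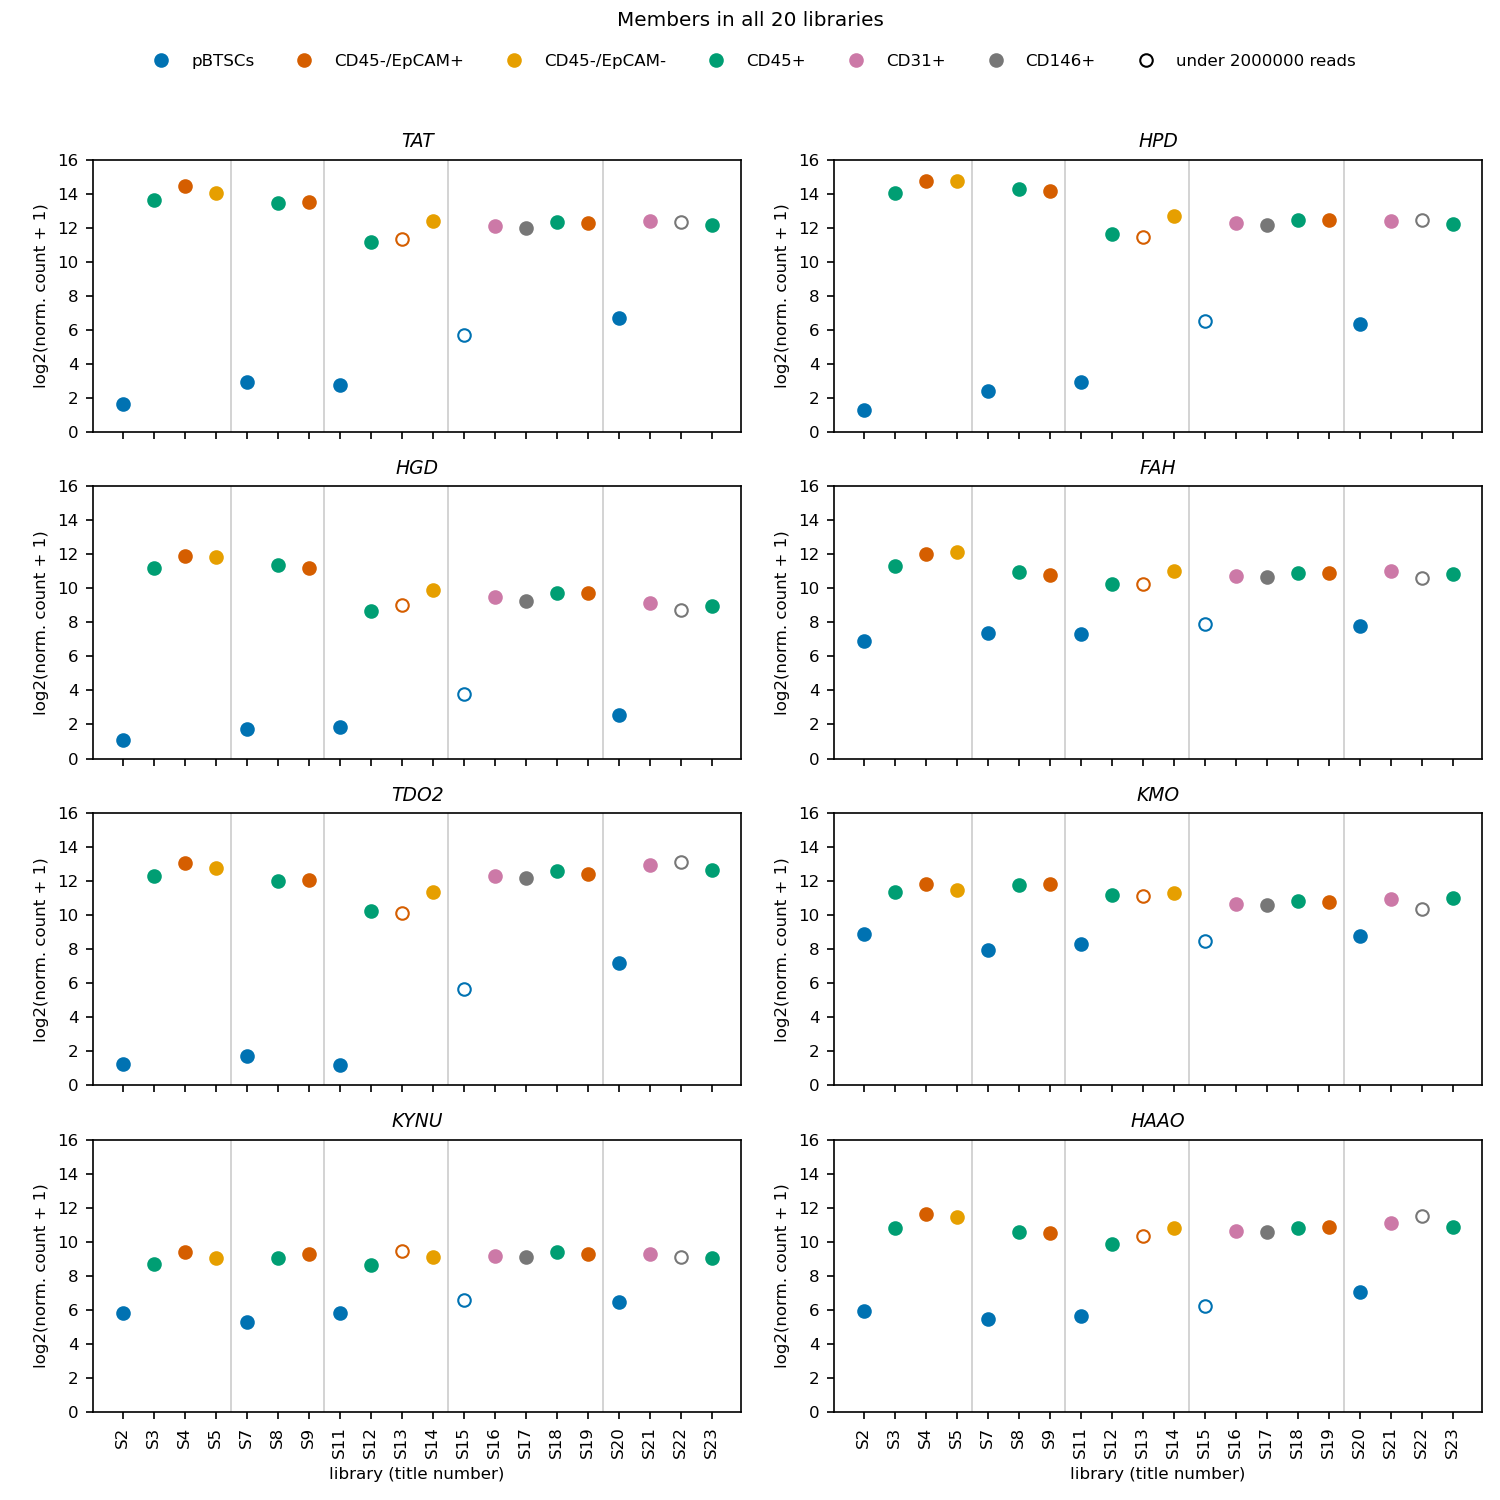
Normalized counts of the 8 genes in the 20 libraries, as log2(normalized count + 1) on the vertical axis, with libraries in order of title number on the horizontal axis. Colours give the sorted group, open circles mark the 3 libraries under 2000000 estimated reads, and vertical lines divide the 5 runs of title numbers; the pBTSC point lies lowest in every run.

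TAT, tyrosine aminotransferase, takes the first step of tyrosine breakdown and is induced by glucocorticoids in the liver. In pBTSCs it stood at 2.04 normalized counts in S2, 6.71 in S7, 5.73 in S11, 50.2 in S15 and 100.6 in S20. In the liver libraries of the runs S2-S5 and S7-S9 it stood at 12757 in S3, 22483 in S4, 16996 in S5, 11315 in S8 and 11721 in S9. In the other 10 liver libraries it lay between 2303 in S12 and 5394 in S14, with all 7 libraries of S16-S23 between 4075 and 5306. The groups did not overlap, and the lowest liver library was 22.9 times the highest pBTSC library. Within the liver, S3, S4, S5, S8 and S9 stood above all the rest. Against CD45-/EpCAM+ liver cells the log2 fold change of TAT in pBTSCs was -8.97 (standard error 0.88, limma, adjusted p = 6.1e-07).

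HPD, hydroxyphenylpyruvate dioxygenase, makes homogentisate. It stood at 1.40 normalized counts in S2, 4.29 in S7, 6.503 in S11, 91.3 in S15 and 78.0 in S20 of the pBTSCs. In the liver it was 16420 in S3, 27536 in S4, 26862 in S5, 19621 in S8 and 17941 in S9, and 2761 to 6452 in the other 10 libraries. The same 5 liver libraries as for TAT were high, and every liver library was at least 30.3 times the highest pBTSC library. The log2 fold change of HPD in pBTSCs against CD45-/EpCAM+ liver cells was -9.31 (standard error 0.99, limma, adjusted p = 1.5e-06).

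HGD, homogentisate dioxygenase, opens the ring of homogentisate and is the enzyme lost in alkaptonuria. Its pBTSC values were 1.13 normalized counts in S2, 2.31 in S7, 2.65 in S11, 13.1 in S15 and 4.77 in S20. The value of S15 is that of 1 read, under the floor of 37.7 in that library. The liver values were 2314 in S3, 3838 in S4, 3660 in S5, 2652 in S8 and 2364 in S9, against 401 to 960 in the other 10 libraries. HGD thus had the same 5 high liver libraries as TAT and HPD, and no pBTSC library overlapped with the liver. The log2 fold change of HGD against CD45-/EpCAM+ liver cells was -8.26 (standard error 0.69, limma, adjusted p = 1.3e-07).

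FAH, fumarylacetoacetase, ends tyrosine degradation, and its loss causes a hereditary tyrosinemia. It was detected in all 5 pBTSC libraries, at 118 normalized counts in S2, 166 in S7, 158 in S11, 239 in S15 and 217 in S20. In the liver it ranged from 1208 in S13 to 4499 in S5 with a median of 1903. The lowest liver library was 5.06 times the highest pBTSC library. The log2 fold change against CD45-/EpCAM+ liver cells was -3.54 (standard error 0.32, limma, adjusted p = 2.3e-07).

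TDO2, tryptophan dioxygenase, is the first enzyme of the kynurenine pathway in the liver. Its pBTSC values were 1.36 normalized counts in S2, 2.32 in S7, 1.27 in S11, 50.3 in S15 and 142 in S20. The value of S11 is that of 2 reads, and those of S15 and S20 are of 4 and 296 reads. In the liver TDO2 stood at 1208 in S12, 1131 in S13 and 2609 in S14, and between 4150 and 9023 in the other 12 libraries. The run S11-S14 held the 3 lowest liver libraries and the groups did not overlap, with the lowest liver library at 7.97 times the highest pBTSC library. The log2 fold change of TDO2 against CD45-/EpCAM+ liver cells was -8.53 (standard error 1.05, limma, adjusted p = 7.3e-06).

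KMO, kynurenine monooxygenase, hydroxylates kynurenine at the outer mitochondrial membrane. It had the smallest difference between pBTSCs and liver of the 8 genes. The pBTSC values were 478 normalized counts in S2, 241 in S7, 317 in S11, 352 in S15 and 434 in S20. In the liver libraries of S3-S14 it stood at 2262 in S13 as the lowest, 2756 as the median and 3635 in S9 as the highest, and in those of S16-S23 at 1304 in S22, 1756 and 2076 in S23. Neither pBTSCs and liver nor the 2 ranges of title numbers overlapped. The log2 fold change of KMO against CD45-/EpCAM+ liver cells was -2.92 (standard error 0.24, limma, adjusted p = 9.9e-08).

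KYNU, kynureninase, releases hydroxyanthranilate from hydroxykynurenine. In pBTSCs it was 55.8 normalized counts in S2, 38.6 in S7, 56.3 in S11, 96.3 in S15 and 88.7 in S20, and in the liver it ranged from 395 in S12 to 695 in S13. Its liver range was the narrowest of the 8 genes, with a highest library at 1.76 times the lowest. The log2 fold change of KYNU against CD45-/EpCAM+ liver cells was -3.33 (standard error 0.23, limma, adjusted p = 1.7e-08). HAAO, hydroxyanthranilate dioxygenase, leads on to quinolinate. HAAO was 60.4 normalized counts in S2, 42.5 in S7, 49.2 in S11, 75.1 in S15 and 132 in S20, against 953 in S12 to 3200 in S4 in the liver. Its log2 fold change was -4.78 (standard error 0.34, limma, adjusted p = 2.2e-08).

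Against CD45-/EpCAM+ liver cells, limma called all 8 members lower in pBTSCs, where 10.3% of the 15576 genes tested were called lower (calls need an adjusted p under 0.05 over all genes and a log2 fold change beyond 1 in size). The median log2 fold change of the 8 was -6.52, beside 0.08 over all genes. All 8 were also called lower against CD45-/EpCAM- liver cells, where 16.6% of all genes were, with a median of -6.88. Against CD45+ cells all 8 were called lower beside 9.54% of all genes, with a median of -6.16. Against the mean of CD31+ and CD146+ cells all 8 were called lower beside 8.75% of all genes, with a median of -5.92. In all 4 comparisons together, which share the 5 pBTSC libraries and are not independent, 6.73% of genes were called lower each time. All 5 pBTSC libraries were under all 15 liver libraries in each of the 8 genes and in 9.21% of all genes. The largest adjusted p among the 32 values was 5.2e-05, for TDO2 against CD45-/EpCAM- cells (limma).

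**Figure D2:**
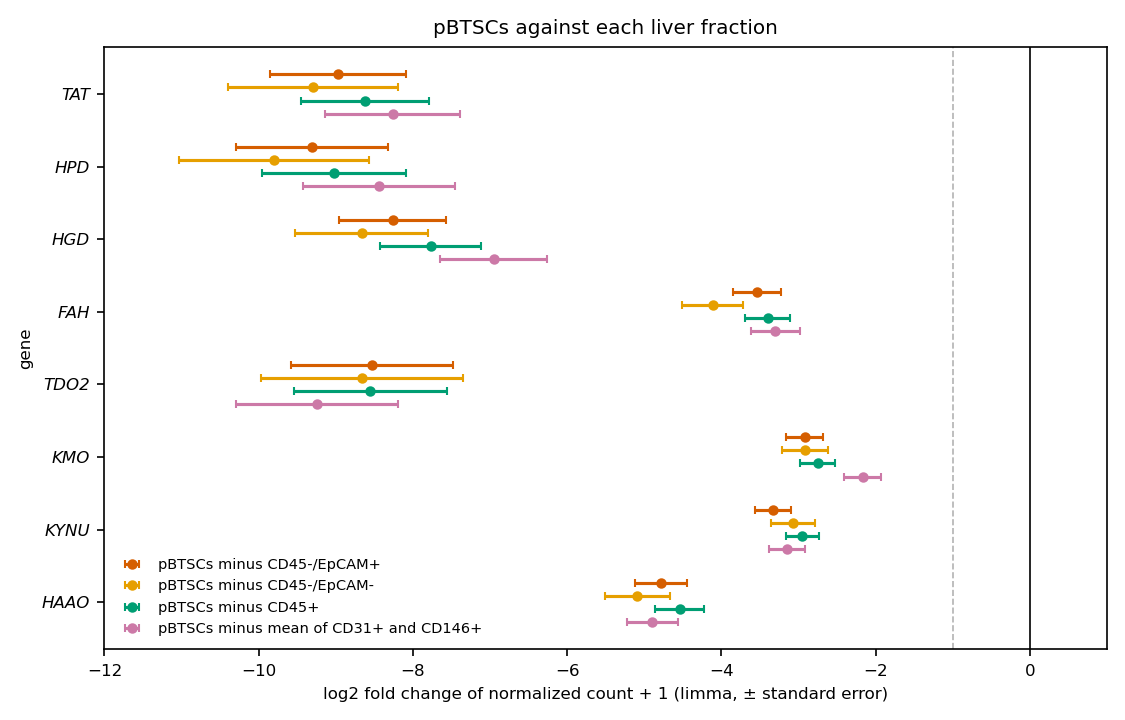
Log2 fold change of pBTSCs minus each liver fraction for the 8 genes, with limma standard errors as bars, on a horizontal axis in log2 units of the normalized count + 1. The dashed line marks the fold change of -1 used for calls; TAT, HPD, HGD and TDO2 lie between -9.80 and -6.95 in all 4 comparisons, and the other 4 genes between -5.09 and -2.17.

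Markers of several cell types moved with this difference. Against CD45-/EpCAM+ liver cells, 8 of 8 hepatocyte markers were called lower in pBTSCs, as were 10.3% of all genes, with a median log2 fold change of -8.27. Their summed level was 26338 to 78702 normalized counts in pBTSCs. Most of that sum was APOA1 in S2 (23518 of 28436), S7 (27035 of 29864) and S11 (23582 of 26338). Of the macrophage markers, 9 of 9 were called lower with a median of -3.29, and their sum was 5062 to 13757 in pBTSCs against 39656 to 140192 in the liver. Of the stellate cell and fibroblast markers, 5 of 6 were called higher, as were 14.8% of all genes, with a summed level of 311710 to 1385074 in pBTSCs against 25166 to 147548 in the liver. The other lists moved less evenly: 1 of 4 cholangiocyte markers was called lower, 2 of 7 lymphocyte markers higher, 2 of 7 endothelial markers higher and 2 lower, and 2 of 4 erythroid markers higher. None of these lists has a defining marker at 0 in all pBTSC libraries, and their part in the difference of the 8 genes was not tested.

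The 5 pBTSC libraries were not alike. In S15 and S20, the libraries of wild-type piglets, TAT, HPD, HGD, FAH, TDO2, KYNU and HAAO all lay above S2, S7 and S11, the libraries of H2B-GFP piglets, while KMO overlapped. The ratio of the means was 58.1 for TDO2, 20.8 for HPD, 15.6 for TAT and 4.39 for HGD, the last resting on 1 read in S15. It was between 1.54 and 2.04 for FAH, KYNU and HAAO and 1.14 for KMO. ALB, the gene of albumin, moved the same way, from 287 to 376 normalized counts in S2, S7 and S11 to 19832 in S15 and 25087 in S20, a ratio of 70.8. That was the largest ratio of the 8 hepatocyte markers, which was 41.8 for TTR, 37.3 for FGB, 27.8 for AHSG, 16.8 for APOB, 7.27 for TF and 1.93 for SERPINA1, while APOA1 overlapped with a ratio of 1.01. These ratios are descriptions of 3 and 2 libraries, and line cannot be told apart from anything else that differed between these preparations. The study's supplement lists lower RNA concentrations for S2, S7 and S11 than for S15 and S20. It also lists lower RNA integrity numbers for S2, S7 and S11 than for S20, and none for S15. The part of RNA quality in these ratios was not tested. Without S15 and S20, an alternative chosen after seeing the data, the log2 fold changes against CD45-/EpCAM+ liver cells became larger in size, at -10.46 for TAT, -11.00 for HPD, -8.90 for HGD and -10.54 for TDO2, against -3.79 for FAH, -3.01 for KMO, -3.68 for KYNU and -5.17 for HAAO. All 8 were still called lower (limma, largest adjusted p = 9.9e-07), beside 1498 of 15367 genes. Without the 3 shallow libraries, S15 among them, all 8 were called lower as well, beside 1683 of 15380 genes, HPD with the lowest value of -10.56.

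The 8 genes were also set against albumin in the same library. This moves all 8 genes of a library by the same factor, so the order of the genes adds nothing to that of the fold changes, and ALB is the hepatocyte marker that differed most among the pBTSC libraries. In the wild-type pBTSC libraries TAT stood at 2.53 (S15) and 4.01 (S20) normalized counts per 1000 of ALB, against 2.86 to 25.6 in the 15 liver libraries. TDO2 stood at 2.54 and 5.66 against 1.42 to 10.54, and HPD at 4.60 and 3.11 against 3.18 to 40.5. HGD stood at 0.659 and 0.190 against 0.232 to 5.51, the value of S15 resting on 1 read. In these 2 libraries the 4 genes lay within or under the liver range of the ratio. KMO stood at 17.7 and 17.3 per 1000 of ALB in the same pBTSC libraries against 0.729 to 6.70 in the liver. KYNU stood at 4.86 and 3.54 against 0.307 to 1.08, and FAH at 12.04 and 8.66 against 0.874 to 6.78. For KMO, KYNU and FAH both wild-type libraries were above all 15 liver libraries. HAAO was above them in S20 (5.25) but not in S15 (3.79), with a highest liver value of 4.28. The ratios of S15 rest on few reads: 4 each for TAT and TDO2, 5.98 for HAAO, 7.26 for HPD and 7.67 for KYNU. In the H2B-GFP libraries, where ALB was itself low, KMO was 842 to 1271 per 1000 of ALB, FAH 314 to 580, KYNU 135 to 195 and HAAO 148 to 171, whereas TAT was 5.43 to 23.4 and TDO2 3.61 to 8.10. HPD was 3.72 to 22.6 there, and HGD reached 8.07 in S7 and 9.20 in S11, above the liver range, on 9 and 4 reads.

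**Figure D3:**
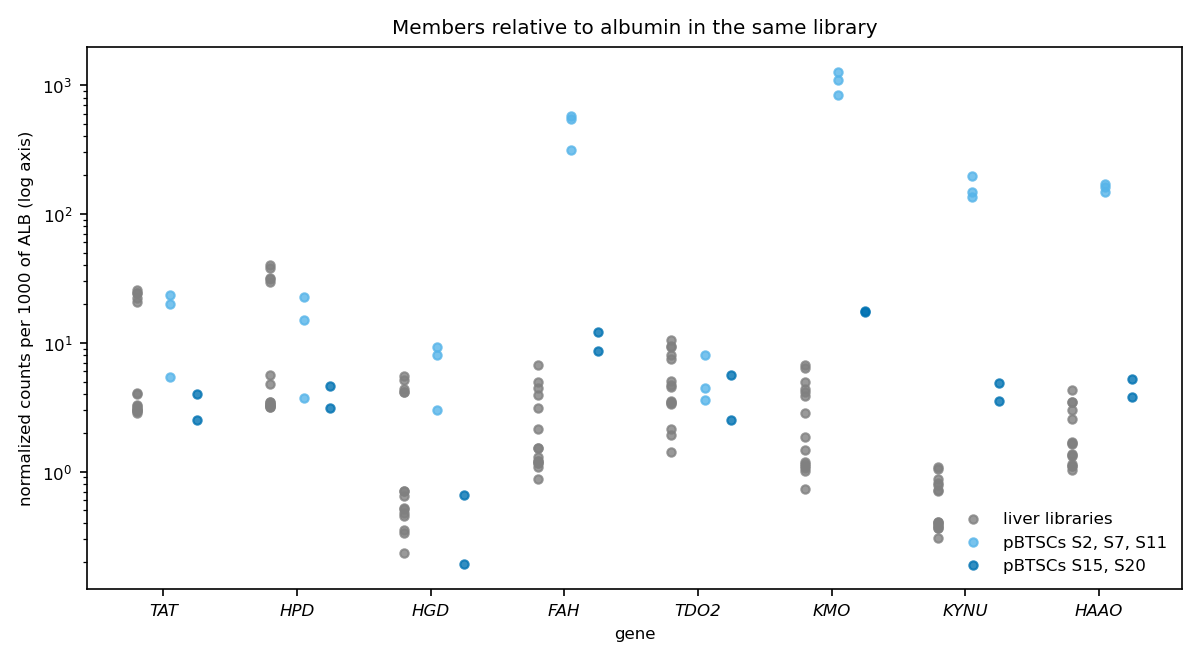
Normalized counts of each of the 8 genes per 1000 normalized counts of ALB in the same library, on a log axis, with 1 point per library: grey for the 15 liver libraries, light blue for pBTSCs S2, S7 and S11, dark blue for S15 and S20. The blue points of TAT, HPD and TDO2 lie within or near the range of the grey ones, as do those of HGD except S7 and S11 above it, and those of KMO, KYNU and FAH all lie above them.

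The sorted fractions of the liver were compared next. Limma called 0 of the 8 members between CD45+ and CD45-/EpCAM+ libraries, and 0 of 14910 genes (0%), with 134 genes at an unadjusted p under 0.05. The log2 fold changes of the members ran from -0.41 (KYNU) to -0.07 (KMO), with a median of -0.19 beside 0.00 over all genes. The median was 0.14 without S12 and 0.12 without S4. KYNU and HAAO were lower in CD45+ libraries under all 30 alternatives, KYNU with an unadjusted p of 0.0166 (limma, adjusted p = 1), and the other 6 genes changed sign under some. CD45+ and CD45-/EpCAM+ libraries with neighbouring title numbers mostly gave similar values. TAT was 5156 normalized counts in the CD45+ library S18 and 4938 in the CD45-/EpCAM+ library S19, and 11315 and 11721 in S8 and S9. Of the 8 genes in S18 and S19, the CD45+ library was between 0.956 and 1.09 times the other. In S12 and the shallow S13 the ratio ran from 0.5683 for KYNU to 1.15 for HPD. S3 lay under S4 in all 8 genes, at 0.567 to 0.725 times, and ALB was there at 0.565 times. The 95% interval of the fraction difference from limma was -1.65 to 1.39 on the log2 scale for HPD, -0.45 to 0.30 for KMO and -0.73 to -0.09 for KYNU.

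Between CD45-/EpCAM- and CD45-/EpCAM+ libraries limma called 0 of the 8 members, where 0.617% of all genes were called, and the members' log2 fold changes ran from -0.20 (KYNU) to 0.57 (FAH). KYNU did not overlap, with CD45-/EpCAM- at 538 and 548 and CD45-/EpCAM+ at 614 to 695, which 14.5% of all genes did in that direction. The 2 CD45-/EpCAM- libraries were close in KYNU and far apart in TAT, at 16996 in S5 and 5394 in S14. The median log2 fold change of the members, 0.21 with both, was 1.04 without S14 and -0.30 without S5. It also changed sign without the shallow library S13, to -0.28. S5 and S14 also held the highest summed erythroid markers of all libraries, 866532 and 187863 normalized counts, against 1441 to 42450 in the other 13 liver libraries; their part in these values was not tested. A change of the CD45+ difference between the 2 ranges of title numbers was tested as an interaction, and limma called 0 of the 8 members and 0 of 14910 genes (25 genes at an unadjusted p under 0.05).

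Of the CD31+ and CD146+ libraries, S16 (CD31+) and S17 (CD146+) stood close together, with KMO at 1634 and 1521 normalized counts and TAT at 4364 and 4075. S21 (CD31+) and the shallow S22 (CD146+) were close in TAT, at 5306 and 5113, but not in KMO, at 1994 and 1304, or HAAO, at 2222 and 2988. The group means of TAT were ordered CD45-/EpCAM- (11195 ± 8204, SD, n = 2), CD45-/EpCAM+ (10435 ± 8916, SD, n = 4), CD45+ (7219 ± 4553, SD, n = 5), CD31+ (4835 ± 666, SD, n = 2), CD146+ (4594 ± 734, SD, n = 2) and pBTSCs (33.1 ± 42.6, SD, n = 5). Neighbours in that order differed by less than their spread except CD146+ cells and pBTSCs. For KMO the order was CD45-/EpCAM+ (2813 ± 952), CD45-/EpCAM- (2699 ± 287), CD45+ (2451 ± 631), CD31+ (1814 ± 254), CD146+ (1413 ± 153) and pBTSCs (364 ± 94.0), each mean with its SD. The first 3 lay within their spread, and CD31+ and CD146+ cells were compared with no test. CD31+ and CD146+ cells were sequenced only in S16-S23 and CD45-/EpCAM- cells only in S3-S14, so for these fractions the sort and the range of title numbers cannot be told apart.

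The means of the runs differed by more than libraries within a run for 6 of the 8 genes, by about as much for HAAO and by less for KYNU. The highest run mean over the lowest among liver libraries was 6.64 for HGD, 5.71 for HPD, 5.07 for TAT, 4.75 for TDO2, 2.51 for FAH, 2.11 for KMO, 1.93 for HAAO and 1.13 for KYNU. Within a run, the highest library was at most 2.39 times the lowest in any of the 8 genes, at most 1.92 times for HAAO and at most 1.76 times for KYNU. The runs did not keep 1 order. S2-S5 had the highest mean of TAT, HPD, HGD, FAH and HAAO, S20-S23 that of TDO2, S7-S9 that of KMO and S15-S19 that of KYNU. S11-S14 had the lowest mean of TAT, HPD, FAH, TDO2 and HAAO, S20-S23 that of HGD, S15-S19 that of KMO and S2-S5 that of KYNU.

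**Figure D4:**
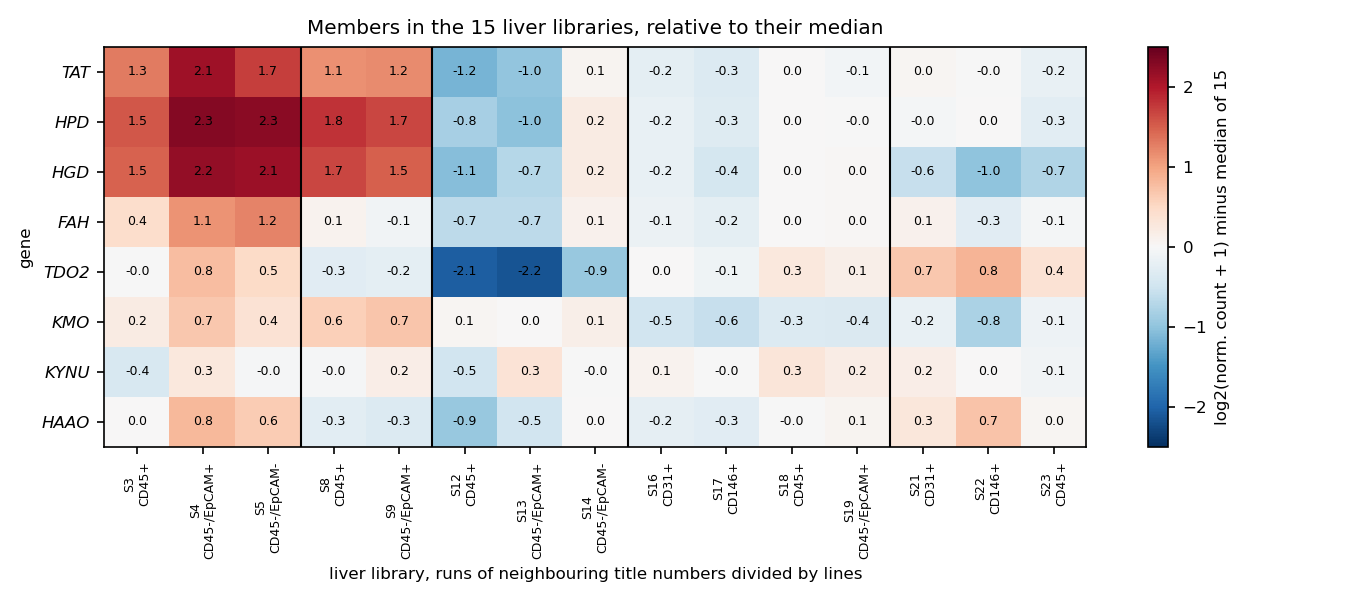
The 8 genes (rows) in the 15 liver libraries (columns, in order of title number, with their sorted fraction), as log2(normalized count + 1) minus the median of the 15, printed in each cell and coloured from blue for low to red for high. Black lines divide the runs; TAT, HPD and HGD are red in S2-S5 and S7-S9, TDO2 is bluest in S11-S14, and KMO is blue throughout S16-S23.

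Between S16-S23 and S3-S14, with the sorted fraction in the fit, limma called 0 of the 8 members, where 3.78% of all genes were called. The median log2 fold change of the members was -0.33, beside 0.03 over all genes. KMO had the smallest adjusted p of the 8 and a fold change of -0.63 on the log2 scale (standard error 0.18, limma, adjusted p = 0.0539), and it was the single member whose ranges did not overlap, which 8.32% of all genes did in that direction. Over the 8 and 7 libraries alone, an exact two-sided permutation test gave KMO p = 0.000155, the smallest that the 6435 splits can give, without regard to fraction. Within the 9 libraries of the fractions present in both ranges, CD45+ (3 and 2) and CD45-/EpCAM+ (3 and 1), the exact permutation test gave p = 0.025, the smallest that 40 splits can give. With the run as a random block the difference of KMO was -0.61 (standard error 0.22, limma, adjusted p = 0.203). Over all alternatives the difference of KMO lay between -0.84 and -0.41, with adjusted p from 6.25e-05 with library weights to 0.926 without the run S15-S19 (limma), and it was short of the fold change needed for a call in each. Splitting the 5 runs into 3 and 2 allows 10 arrangements, whose smallest p is 0.1, so a test over runs could not have passed 0.05.

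HGD differed by -1.02 (standard error 0.70, limma, adjusted p = 0.398), HPD by -0.98 (0.442), TAT by -0.64 (0.599), TDO2 by 0.94 (0.367), HAAO by 0.29 (0.636), KYNU by 0.23 (0.396) and FAH by -0.03 (0.977), each log2 fold change with its adjusted p in brackets. By the exact two-sided permutation test over 8 and 7 libraries, p was 0.0218 for HGD, 0.05004 for HPD, 0.0668 for TDO2, 0.114 for TAT, 0.331 for FAH, 0.364 for KYNU and 0.538 for HAAO, none adjusted for the 8 genes tested. Within the fractions present in both ranges these 7 genes had exact permutation p between 0.275 and 0.95. The comparison of TAT, HPD and HGD depended on the runs S11-S14 and S2-S5. For TAT and HPD, S12 and S13 stood under all libraries of S16-S23, and for HGD S12 did. S14 and the other 5 libraries of S3-S14 stood above all of S16-S23 in the 3 genes, S14 by little. Without the run S11-S14, an alternative chosen after seeing the data, limma called TAT (-1.47, adjusted p = 0.00277), HPD (-1.88, adjusted p = 4.0e-04) and HGD (-1.89, adjusted p = 0.00136) lower in S16-S23. In that fit 549 of 14752 genes were called lower. The fit with library weights also called these 3, where 919 of 14910 genes were called lower. Without the run S2-S5, also chosen after seeing the data, the differences shrank to -0.108 for TAT, -0.509 for HPD and -0.55 for HGD. These were short of the fold change needed for a call.

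The run S11-S14 stood apart in other measurements as well. Its summed macrophage markers were 108879 to 140192 normalized counts, against 39656 to 72882 in the other 12 liver libraries, while its summed hepatocyte markers, 1153366 to 2532814, overlapped with theirs. S13 of that run is also shallow. Between the ranges, 4 of 4 erythroid markers were called lower in S16-S23, 1 of 8 hepatocyte markers higher and 1 of 6 stellate cell and fibroblast markers higher. Of the others, 0 of 9 macrophage, 0 of 7 endothelial, 0 of 6 lymphocyte and 0 of 4 cholangiocyte markers were called. Among all genes 1.51% were called lower and 2.27% higher. ALB went against TAT, HPD, HGD and KMO, at 513084 to 1348204 normalized counts in S3-S14 and 1366702 to 1789958 in S16-S23. The part of these markers in the differences of the 8 genes was not tested.

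How the members varied together was described over the 13 liver libraries with deep sequencing, which share runs and a common scaling, so that the coefficients carry no p. TAT and HPD had a Pearson r of 0.981 (Spearman rho 0.956), HPD and HGD 0.989 (0.967), and TAT and HGD 0.967 (0.890). FAH and HAAO followed each other with 0.901 (0.819) and TDO2 and HAAO with 0.820 (0.841). TDO2 and KMO, the first and the second oxygenase of the kynurenine pathway, had -0.02 (-0.05). KMO followed AFP, the fetal serum protein alpha-fetoprotein, with 0.906 (0.918), and ALB with -0.755 (-0.714). AFP was 65022 to 176993 normalized counts in S3-S14 and 914 to 2034 in S16-S23, so that the liver libraries fall into 2 clusters in this gene and its coefficients largely restate the division by title number.

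Over the 17 deep libraries, pBTSCs included, the genes most like each member by Pearson r on log2(normalized count + 1) were as follows. TAT was nearest to FGG (0.999) and FGB (0.998), which encode fibrinogen chains, and HPD to FGG (0.997) and NNMT (0.996). TDO2 was nearest to SERPINC1 (0.998), the gene of antithrombin, and CPB2 (0.998), and HGD to TMPRSS6 (0.991) and GOLT1A (0.991). HAAO was nearest to GCGR (0.998), the glucagon receptor, and TFR2 (0.997), and KYNU to CIDEB (0.993) and NR1H4 (0.992), the bile acid receptor FXR. KMO was nearest to SERPINA1 (0.986), antitrypsin, and SLC35G1 (0.980), and FAH to EVA1A (0.995) and HAPLN3 (0.994). These coefficients mostly reflect the distance between pBTSCs and liver. Within the 13 deep liver libraries the nearest genes were FGB (0.986) for TAT, CTH (0.992) for HPD, CTH (0.994) for HGD, F12 (0.990) for FAH, CYB5A (0.979) for TDO2, TNPO3 (0.977) for KMO, FAM120A (0.932) for KYNU and FGFRL1 (0.977) for HAAO.

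The genes around the members in these pathways were read in the same fits, where 10.3% of all genes were called lower and 14.8% higher against CD45-/EpCAM+ liver cells. Of 5 genes tested that make or regenerate tetrahydrobiopterin, a cofactor of aromatic amino acid hydroxylases, 2 were called lower in pBTSCs than in CD45-/EpCAM+ liver cells and 0 higher. They were PCBD1, at -2.36 on the log2 scale, and QDPR, at -1.72, both of which regenerate the cofactor. Of 6 other genes listed with tyrosine degradation 4 were called lower and 0 higher. Among them were GSTZ1, the isomerase between HGD and FAH, at -2.86 (standard error 0.39), DDT at -2.10 and GOT1, a transaminase, at -1.64. The list includes the tautomerases DDT and MIF, which are not steps between TAT and FAH. All 4 genes called lower differed by less than TAT, HPD and HGD. HPDL, a paralogue of HPD, had a positive difference that was not called, at 2.22 (standard error 0.98, limma, adjusted p = 0.0832). It stood at 78.6 to 92.5 normalized counts in S2, S7 and S11, above the highest liver library at 61.2. In S20 it was 27.4, within the liver range, and in S15 25.1, under the floor of 37.7 in that library.

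Of 7 further genes of the kynurenine pathway and NAD synthesis tested, 5 were called lower in pBTSCs and 0 higher, beside 10.3% and 14.8% of all genes. IDO2, another tryptophan dioxygenase, was at -6.81 (standard error 0.56), AFMID, the formamidase after TDO2, -2.43, and NMNAT1 -1.79. IDO1, the dioxygenase induced by interferon, had a positive difference that was not called, at 1.80. Its values were low, at 4.91 to 10.2 normalized counts in S2, S7, S11 and S20 and 0 to 12.2 in the liver. In S15 it was 25.1, under the floor of that library. Among 4 genes of aromatic amine routes 2 were called lower, DDC at -5.00 and INMT at -4.30, and 1 higher, TH, tyrosine hydroxylase, at 2.22 (standard error 0.82, limma, adjusted p = 0.0398). TH stood at 27.4 normalized counts in S2, 6.45 in S7 and 12.7 in S11. It stood at 0 in S15 and 0.958 in S20, within the liver range of 0 to 2.88. The floor in S15, 37.7, is above all values of TH. Only S2 and S11 reached the 10 normalized counts that the filter asks for. TH was therefore tested only through the group in which it was called higher, and its call is no support for a difference. Of 5 transporter genes 3 were called lower, SLC43A2 at -2.61, SLC7A8 at -2.07 and SLC3A2 at -1.17. For serine, threonine and glycine, the amino acids of the missing SDS, 7 of 8 genes were called lower and 0 higher, among them AGXT at -8.19, GLDC at -5.80 and SHMT1 at -3.89. SDSL, which is related to SDS, was at -3.67 (standard error 0.50).

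**Figure D5:**
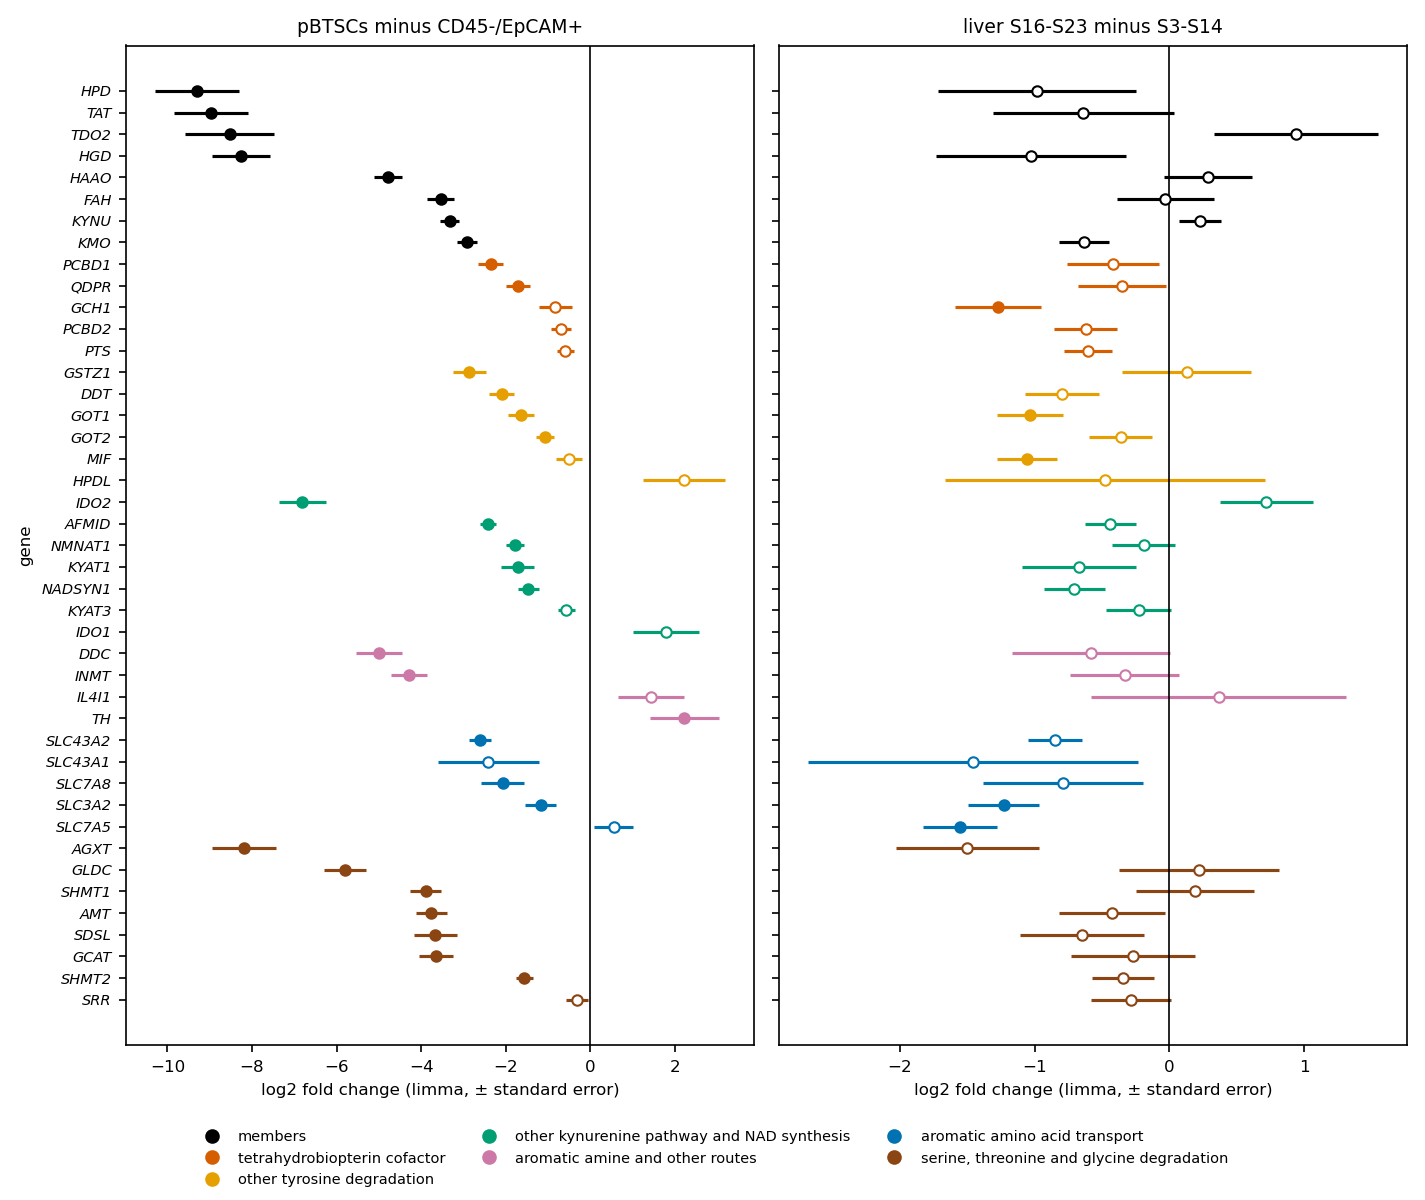
Log2 fold changes with limma standard errors for the 8 genes (black) and the genes of 6 related pathway lists (other colours), on the left for pBTSCs minus CD45-/EpCAM+ liver cells and on the right for liver libraries S16-S23 minus S3-S14; filled points were called. On the left 23 of the 35 pathway genes are called lower and 1 higher, and on the right 5 of 33 are called lower and 0 higher. Of all genes, 10.3% are called lower and 14.8% higher on the left, and 1.51% lower and 2.27% higher on the right.

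Between S16-S23 and S3-S14, 5 of the 33 pathway genes tested (1.51% of all genes were called lower) were called lower and 0 higher. They were SLC7A5 at -1.56 on the log2 scale (standard error 0.27) and SLC3A2 with -1.23 (standard error 0.26), the light and heavy chain of a transporter for large neutral amino acids, tyrosine and tryptophan among them. The others were GCH1, the first enzyme of tetrahydrobiopterin synthesis, at -1.27, GOT1 at -1.04 and MIF, a tautomerase, at -1.06. The median log2 fold change of the 5 transporter genes was -1.23, that of the 8 serine, threonine and glycine genes -0.31 with 0 called, and that of the 8 members -0.33, each beside 0.03 over all genes.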

How the data were processed

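The values are a normalized signal: read counts per gene that the authors scaled between libraries and deposited as 1 table with a column per library. The submitters' processing notes name STAR, Salmon and DESeq2 without versions, and the genome build is not given in the sources used here, so no coordinates are printed. The authors' mean over all libraries was not used. Low values lay within 0.05 reads of whole reads in 60.4% to 84.3% of cases per library, so read counts were not rebuilt and no count test was run. Depth was estimated as the total over the value of 1 read.

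Log2(normalized count + 1) was fitted in R 4.3.3 with lmFit and a trended eBayes of limma 3.58.1, with Benjamini-Hochberg adjustment over genes reaching 10 normalized counts in at least 2 libraries of the fit. The 4 comparisons of pBTSCs used all 20 libraries and 6 groups (15576 genes), and those within the liver the 15 liver libraries with fraction and range of title numbers as terms (14910 genes). A fold change on this scale understates that of low genes. The fit was first tested on simulated data. Exact permutation tests and summaries used Python 3.11.15. Alternatives covered pseudocounts, the filter, scalings, library weights, a random block for runs, other sets of libraries, and each library left out. The closest pair of libraries of 1 group differed by 1.56 times the counting noise, so none were merged. The members and the gene lists were chosen with earlier results of these data known. Of the pathway lists, the text may name the 3 largest called changes per list, comparison and direction; HPDL, IDO1 and SDSL were named after their values were seen. The names GCHFR, SPR, ACMSD, QPRT, NMNAT3, TPH1, SLC16A10, TDH and GCSH of those lists, and FGA and KRT19 of the marker lists, were not analysed here, and some other genes of these lists are not reported here.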

Additional observations from a re-analysis of the deposited data

How the results depend on the processing

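The 8 members were called lower in pBTSCs in all 4 comparisons in each of the 36 alternative fits run, with no sign changed. Against CD45-/EpCAM+ cells the log2 fold change of TAT lay between -11.0 and -7.87, the weakest without the run S2-S5. Over these fits, between 1237 of 15615 genes (libraries rescaled to the same total) and 1975 of 15576 (array weights) were called lower in that comparison. Rescaling libraries to the same total moved the median of all genes in that comparison from 0.08 to 0.39 on the log2 scale, and the members then lay between -9.04 and -2.61. Between S16-S23 and S3-S14 the number of members called was 0, but 3 with array weights (TAT -1.12, HPD -1.59, HGD -1.50), 1 without a term for fraction (HGD -1.34) and 3 without the run S11-S14. Of all genes, 1927 of 14910, 1851 of 14910 and 1154 of 14752 were called in these 3 fits, against 564 of 14910 in the main fit. The count of members with an unadjusted exact permutation p under 0.05 was 2, but 4 with libraries rescaled to the same total, 4 without the 3 shallow libraries and 5 without the run S11-S14. The near-zero FAH difference between the ranges changed sign without the run S2-S5 (0.32) and over the single libraries left out, where it lay between -0.21 and 0.15. In the comparisons of liver fractions no member was called under any alternative, but members changed sign in 5 of 30 alternatives for CD45+ and in 7 of 29 for CD45-/EpCAM- cells. For CD45-/EpCAM- minus CD45-/EpCAM+, the median of the members was -0.28 without the 3 shallow libraries (TAT -0.50, HPD -0.54, HGD -0.52, TDO2 -0.24), -0.15 with array weights (TAT -0.25, HPD -0.38, HGD -0.37) and -0.09 without the run S2-S5 (TAT -0.02, HPD -0.18, HGD -0.26). TAT was -0.01 and HGD -0.03 with libraries rescaled to the same total, and KMO 0.00 with no other term in the fit. Over single libraries left out, the median lay between -0.30 and 1.04, TAT between -0.66 and 1.0, HPD between -0.78 and 1.28, HGD between -0.81 and 1.12, FAH between -0.00 and 1.14 and TDO2 between -0.34 and 1.08. For CD45+ minus CD45-/EpCAM+, the values without the run S2-S5 were 0.05 for HPD, 0.03 for FAH, 0.08 for TDO2 and 0.04 for KMO, and TDO2 was 0.02 with no other term in the fit. Over single libraries left out, the median lay there between -0.52 and 0.14, TAT between -0.80 and 0.28, HPD between -0.78 and 0.40, HGD between -0.89 and 0.22, FAH between -0.38 and 0.19, TDO2 between -0.62 and 0.32 and KMO between -0.20 and 0.02. The array weights of the interaction fit did not converge. The causes were not tested. The labels give no replicate numbers to pair libraries by. Runs of title numbers as a random block left all counts of called members as they were. The depth of S13, S15 and S22 limits low values there.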
